A study of Homo sapiens with 8 samples.

Results

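YTHDF2 binding sites were examined in the genes of 10 serine/arginine-rich (SR) splicing factors, SRSF1, SRSF2, SRSF3, SRSF4, SRSF5, SRSF6, SRSF7, SRSF9, SRSF10 and SRSF11. The sites are the distinct positions (chromosome, coordinate and strand) of the authors' list that lie between the RefSeq ends of these genes on the gene's strand. They number 21 of 37613 positions in the list. The data came from iCLIP2, in which ultraviolet light links a protein to the RNA it touches, the protein is precipitated, and reverse transcription stops at the linked nucleotide. The cells were wild-type HEK293T, a long-established line from human embryonic kidney. The 8 libraries form groups of 4. In the first, cells took 20 µM STM2457, which inhibits the m6A methyltransferase METTL3, in 0.2% DMSO for 12 h, and in the second 0.2% DMSO alone for as long. The design asked which YTHDF2 binding depends on m6A, but the list gives 1 score per row and no value per library. STM2457 was therefore not compared with DMSO, and replicate spread and read depth are unknown. A list of binding sites cannot check the identity of the cells.

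YTHDF2 is a cytoplasmic protein that binds mRNA carrying N6-methyladenosine (m6A) and recruits decay factors to it. SR proteins bind exonic splicing enhancers through RNA recognition motifs and recruit the spliceosome through a domain rich in arginine-serine dipeptides, whose phosphorylation by SRPK and CLK kinases sets their place in the nucleus. Several SR proteins also accompany spliced mRNA to the cytoplasm. Many SR genes limit their own output by splicing in a poison exon, which carries an early stop codon and sends the transcript to nonsense-mediated decay. Exon and coding boundaries were not used here, so no site below is assigned to an exon, an intron, a poison exon or an untranslated region.

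All 10 SR genes had at least 1 site, whereas 38.4% of 19952 protein-coding genes did. Each SR gene had few, between 1 and 4, and none reached the 5 or more sites found in 38.5% of the 7665 genes with a site. SRSF4 had 4 sites, SRSF5 and SRSF11 had 3 each, SRSF3, SRSF6, SRSF9 and SRSF10 had 2 each, and SRSF1, SRSF2 and SRSF7 had 1 each. A single site was thus found in 3 of the 10, against 22% of genes with a site. SR genes had a median of 2 sites, and all genes with a site a median of 3. The SR genes were shorter, with a median span of 9.66 kb against 32.0 kb, introns included. Per kb of span their median was 0.152 sites, against 0.108 over all genes with a site, so the order of these medians turned with the measure. How strongly each gene is expressed was not used here, and its part in these counts was not tested.

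**Figure D1:**
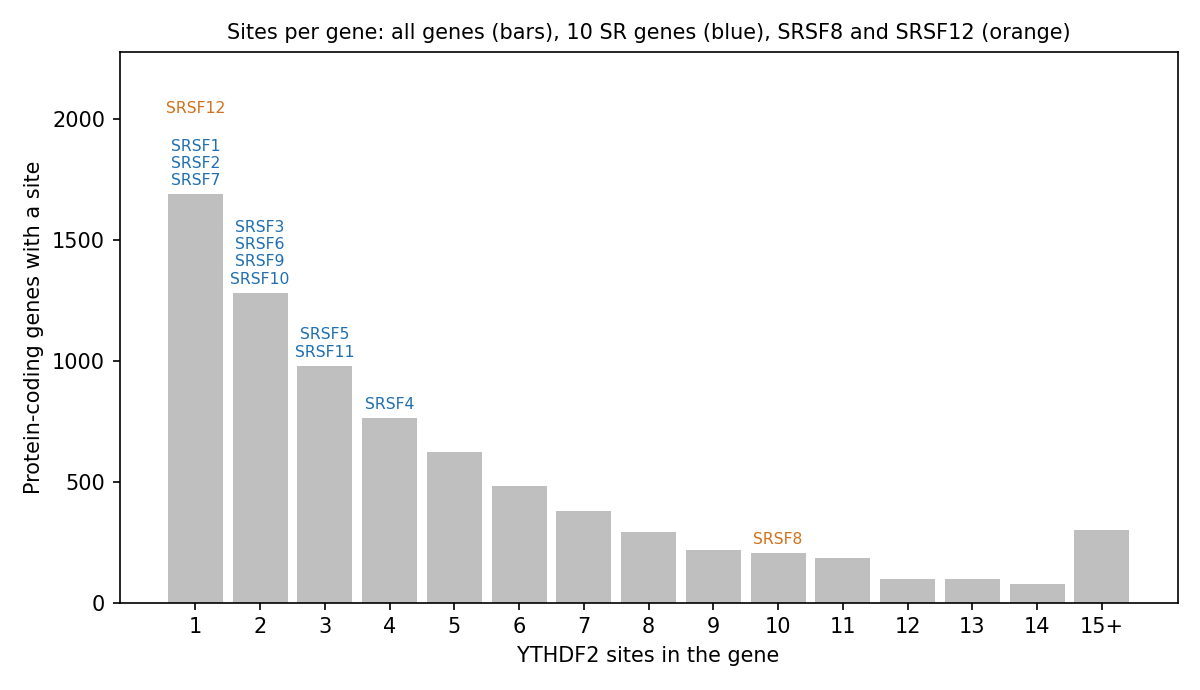
Number of protein-coding genes (vertical axis) by the number of YTHDF2 sites they hold (horizontal axis, 15 or more pooled). The names of the 10 SR genes stand over the bars for 1 to 4 sites in blue, and the related genes SRSF12 (1 site) and SRSF8 (10 sites) are in orange.

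The sites differed widely in score. What the authors' score measures is not stated, so it is given here as a value and as a percentile, the share of the 37613 positions that score no higher. Sites are called weak or strong by this score alone. Over the 21 SR sites the median score was 16.5, at percentile 69.1, whereas the median over all positions assigned to a gene was 8.66. Of the 21, 5 scored at or above 47.0, the 90th percentile of the list (9.96% of assigned positions did), and 4 below 3.75, its 25th percentile (25% did). A site scoring 100 or more was found in SRSF3, SRSF9 and SRSF11, 3 of 10 genes, against 10.3% of genes with a site. Among the 4712 genes with 1 to 4 sites, a class chosen after the SR counts were seen, 4.65% had such a site. The highest score per gene had a median of 45.7 in the SR genes, 21.8 over all genes with a site and 12.9 in that class. These are descriptions of 1 list with no test, since its sites are not replicates.

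Among the SR proteins that carry a pair of RNA recognition motifs (SRSF1, SRSF4, SRSF5, SRSF6 and SRSF9), SRSF4 had the most sites and all of them lay near its 3′ end. SRSF4, also known as SRp75, has a long arginine-serine domain. Its sites on chromosome 1, minus strand (GRCh38), in 5′ to 3′ order were 29149053 with a score of 16.5, 29148493 with 33.1, 29148410 with 24.5 and 29148388 with 54.5. The last 3 lay within 105 nt of each other and the whole group within 665 nt, in a gene that spans 34.2 kb. The nearest was 645 nt and the farthest 1310 nt from the RefSeq 3′ end. All 4 scores lay between percentiles 69.1 and 91.8, with no weak site among them.

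SRSF5 (SRp40), a regulator of alternative splicing, had a close pair near its 3′ end and a weak site further upstream on chromosome 14, plus strand. The pair, at 69771448 and 69771462, lay 14 nt apart, at 557 and 543 nt from the 3′ end. Their scores were 13.4 and 87.8, at percentiles 63.5 and 96.0, so neighbours only 14 nt apart differed widely. The upstream site at 69768810 scored 1.05, at percentile 7.32. In SRSF6 (SRp55), on chromosome 20, plus strand, the sites 43461063 and 43461096 lay 33 nt apart near the middle of the gene, at 49.9% and 50.4% of its span from the 5′ end. They scored 14.5 and 6.08, on either side of the list's median of 8.67.

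SRSF9 (SRp30c), whose arginine-serine domain is short, held the highest score of the 10 genes. Its site at 120465711 on chromosome 12, minus strand, scored 166, at percentile 98.9, and lay at 50.0% of the span. The other SRSF9 site, at 120462156 and 484 nt from the 3′ end, scored 7.33. That stretch is also covered by GATC on the opposite strand, and the position's strand places it in SRSF9. SRSF1, the founding family member SF2/ASF, had 1 site at 58004098 on chromosome 17, minus strand, with a score of 3.15 at percentile 21.3. It lay 3148 nt from the 5′ end of a span of 18.2 kb.

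**Figure D2:**
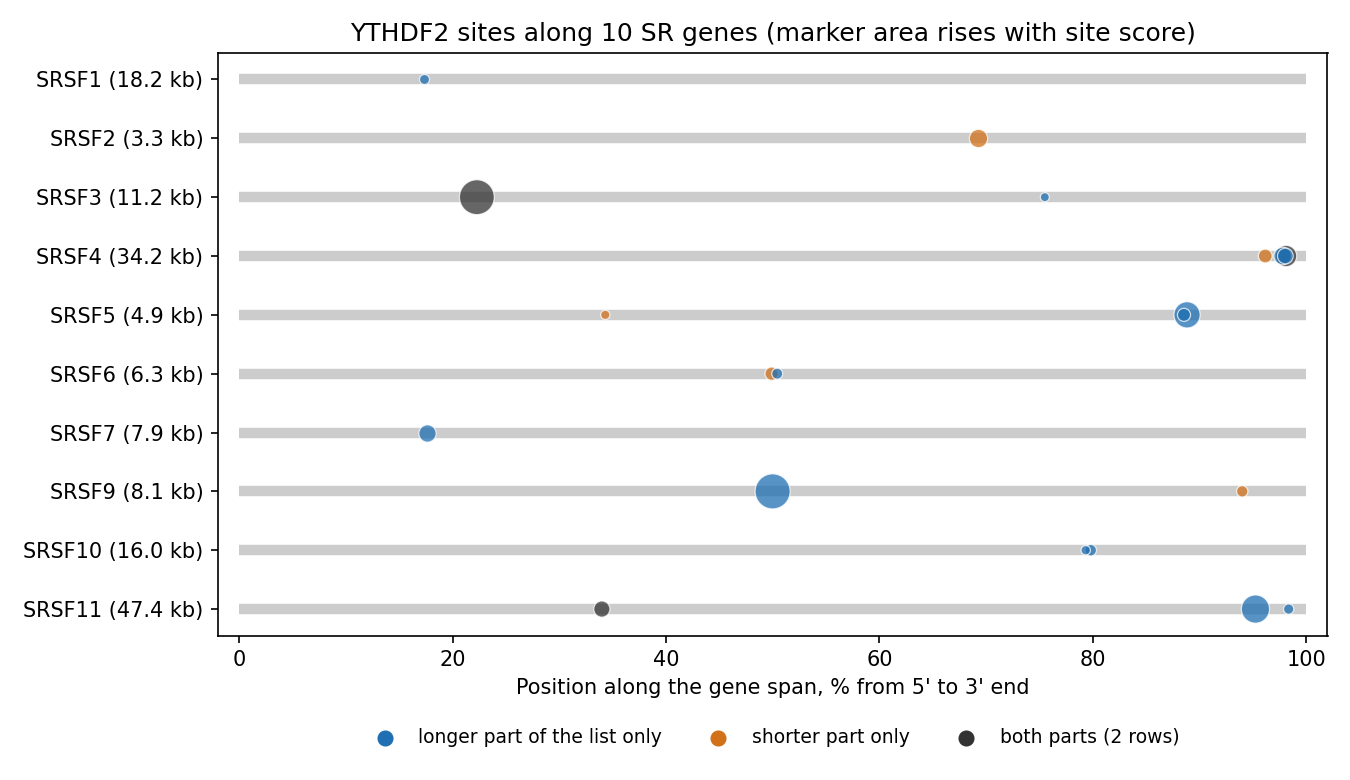
Each grey bar is the span of an SR gene drawn from its 5′ to its 3′ end (horizontal axis, percent of the span, with the span in kb beside the name), and each marker is a YTHDF2 site whose area rises with the authors' score and whose colour gives the part of the list. The 4 SRSF4 sites lie together beyond 96% of the span, whereas the highest score, in SRSF9, lies at 50.0%.

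Among the members with 1 RNA recognition motif, SRSF3 combined a very high with a very low score. SRSF3 (SRp20) is the smallest SR protein and helps to export mRNA through NXF1. On chromosome 6, plus strand, its site at 36596864 scored 164, at percentile 98.8, and its site at 36602847 scored 0.331, at percentile 2.38. They lay 5983 nt apart, the strong one 2502 nt from the 5′ end and the weak one 2753 nt from the 3′ end. The strong position was listed on 2 rows, with scores of 164 and 50.7, and both exceed the score of 47.0 at the 90th percentile of the list.

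SRSF2 (SC35), found in nuclear speckles, and SRSF7 (9G8), which carries a zinc knuckle and also works in mRNA export, had 1 site each. Both sites were of high rank. The SRSF2 site at 76735130 on chromosome 17, minus strand, scored 36.9, at percentile 86.4, and lay 1015 nt from the 3′ end. The SRSF7 site at 38750108 on chromosome 2, minus strand, scored 32.0, at percentile 83.9, and lay 1386 nt from the 5′ end, the nearest of the 21 to the start of its gene. SRSF10 (SRp38), which turns into a splicing repressor when it is dephosphorylated, had only sites below the list's median score, on chromosome 1, minus strand. They lay 75 nt apart, at 23967649 with a score of 1.43 (percentile 10.1) and at 23967574 with 7.76 (percentile 46.5).

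SRSF11 (p54), a more distant SR-related protein of the same speckles, spans 47.4 kb and had the widest spread of sites, over 30488 nt on chromosome 1, plus strand. Its site at 70250801 scored 103, at percentile 97.0, and lay 2251 nt from the 3′ end. The site at 70252275, 1474 nt further on, scored 3.97. The upstream site at 70221787, at 34.0% of the span, had scores of 26.5 and 4.43 on its 2 rows.

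By protein type the 5 genes whose proteins carry a pair of RNA recognition motifs had 12 sites and the 5 with 1 motif had 9, with a median of 2 per gene in each. Highest scores were 166 and 164, and median site scores 15.5 and 26.5, in the same order. Sites in the last 1 kb were 6 in the former and 1 in the latter, and 3 of the 6 were those of SRSF4. This split was made with the sites known and was not tested.

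**Figure D3:**
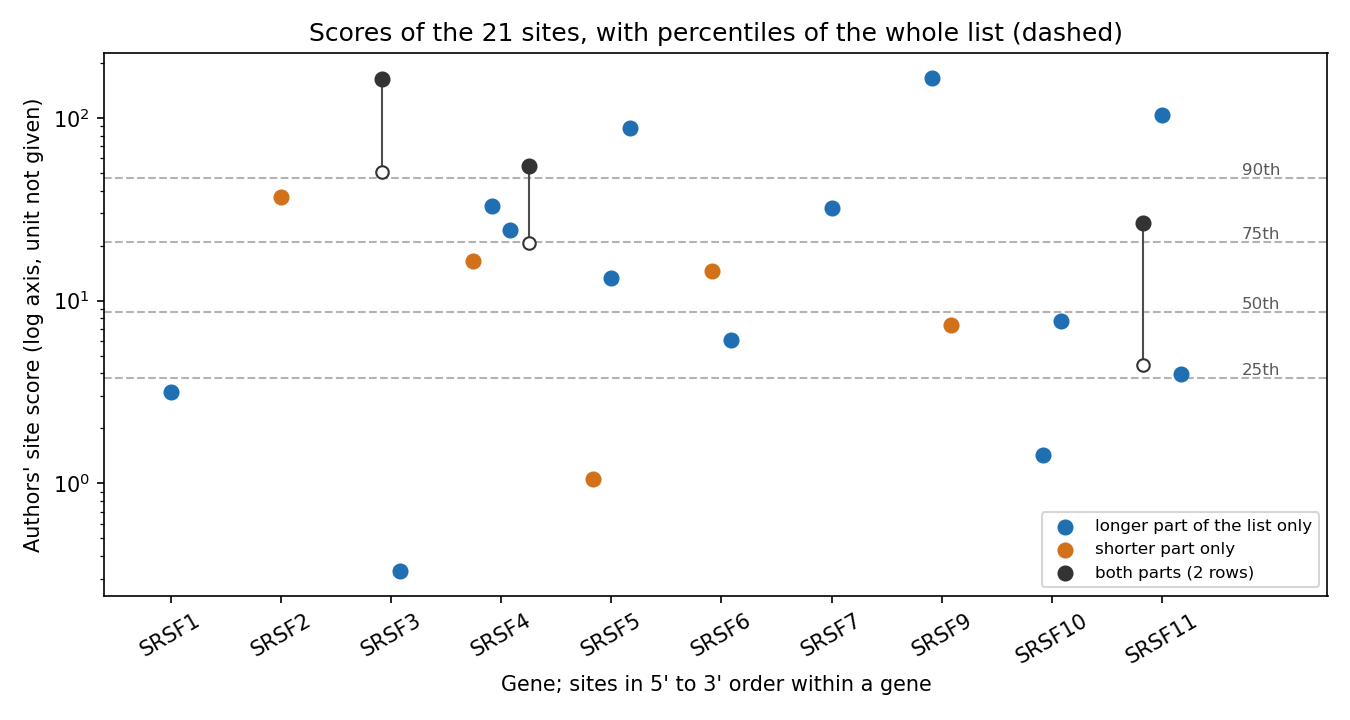
Authors' score (log axis, unit not given) of each of the 21 sites by gene, in 5′ to 3′ order within a gene, with dashed lines at percentiles 25, 50, 75 and 90 of the list. Filled markers give the score, or the higher score where a position has 2 rows, and open markers the lower one; 5 sites lie above the top line, in SRSF3, SRSF4, SRSF5, SRSF9 and SRSF11.

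The share of SR sites near the 3′ end, set beside that of all genes, depended on how the end was measured. Of the 21 sites, 7 lay in the last 1 kb of their gene (33.3%, against 16.9% of assigned positions). They belong to 4 genes, SRSF4 with 3, SRSF5 with 2, and SRSF9 and SRSF11 with 1 each. By gene, 4 of 10 had a site there, against 37.7% of genes with a site. In the last 20% of the span lay 9 of the 21, 42.9% against 53.5% of assigned positions, so this share was below that of all genes while the share in the last 1 kb was above it. A window of 1 kb covers a larger share of a short gene, but the part of gene length in these shares was not tested. SRSF5 and SRSF9 span 4.86 and 8.08 kb, and SRSF4 and SRSF11 span 34.2 and 47.4 kb. The median span over genes with a site was 32.0 kb. None of the 21 lay in the first 1 kb, where 5.33% of assigned positions did. RefSeq spans join all transcripts of a gene, so a distance to an end need not be that in the transcripts of these cells.

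Sites with a neighbour within 50 nt numbered 6 of 21, in SRSF4, SRSF5 and SRSF6, or 28.6% against 29.8% of assigned positions. Positions given on 2 rows were 3 of 21, or 14.3% against 14.8%, in SRSF3, SRSF4 and SRSF11. Row order divides the list, since the chromosomes start again several times on each strand: the first 2 passes of each strand make up a shorter part of 8935 rows and the later ones a longer part of 34243, and neither is labelled with a treatment. Of the 21 SR sites, 13 were in the longer part alone, 5 in the shorter part alone (23.8%, against 9.02% of assigned positions) and 3 in both. The sites of the shorter part alone were the only SRSF2 site, the weaker SRSF9 site, the upstream SRSF4 and SRSF5 sites and the stronger SRSF6 site. Within the shorter part they were at percentiles 94.8, 60.8, 83.8, 12.3 and 81.0, in this order. In the whole list they were at 86.4, 44.7, 69.1, 7.32 and 65.6, so each ranked lower there. At the positions in both parts the scores did not keep 1 order. SRSF3 scored higher in the shorter part (164, against 50.7 in the longer), whereas SRSF4 (20.8 against 54.5) and SRSF11 (4.43 against 26.5) scored lower there. Ranked within each part, the SRSF3 position was at percentile 99.8 of the shorter and 90.5 of the longer part. The SRSF4 position was at 88.0 and 91.3, a small difference in rank, and the SRSF11 position at 42.6 and 79.2.

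Genes that act with the SR proteins are set here beside the 38.4% of protein-coding genes with a site and their median of 3 sites. Of 9 SR protein kinases 6 had a site, with 29 sites in all and a median of 3.5 over those 6. SRPK1, which phosphorylates SR proteins in the cytoplasm for import, had 10 sites with a highest score of 146, DYRK1A had 9 with a highest score of 319, and PRP4K had 4. CLK1, CLK4 and SRPK3, named after their values were seen, had 0 each. TNPO3, which imports SR proteins into the nucleus, had 6 sites, and the export receptor NXF1 had 2. Of 7 core or associated splicing factors that SR proteins help to recruit or work beside, 5 had a site, with a median of 3 over those 5. Most sites were found in SF3B1 and the U1 protein SNRNP70, with 5 each, and in U2AF2, with 3. Both Tra2 genes, TRA2A and TRA2B, which encode SR-like activators of splicing, had 1 site. Of 16 other SR-related genes, 14 had a site and the median over those 14 was 4.5, with SCAF11 at 16, SCAF1 at 14 and SCAF8 at 11. These counts take no account of span. For the genes named here with 6 or more sites, values per kb of span were 0.113 (SRPK1), 0.0560 (DYRK1A) and 0.0588 (TNPO3). They were 0.219 (SCAF11), 0.770 (SCAF1) and 0.109 (SCAF8) in the others, and the median over all genes with a site was 0.108.

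Close copies could affect where reads of these genes were placed. RefSeq names 13 pseudogenes after the 10 genes, 5 of them after SRSF3, and 0 positions of the list lay in any of them. The sources used here do not say how reads that match several places were treated.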

How the data were processed

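The deposited list has no header and gives per row a chromosome, a 1-nt position, a strand and the authors' score. The score's scale, the site caller and the merging of replicates are not stated in the sources used here. Tools in the submitters' processing notes, whose roles are not stated, are bedtools 2.27.1, UMI-tools 1.0.0, STAR 2.7.3a and FastQC 0.11.8, and the build is GRCh38.p12. The list has 0 columns of single libraries, and whether replicates were separate cultures is not labelled.

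Its 43178 rows were joined to 37613 distinct positions, keeping the higher score, and are given counting from 1. Gene spans came from a RefSeq table on GRCh38.p14. Strands came from RefSeq promoter entries (15760 genes) or, where missing, from the majority of positions in that gene alone (1223 genes). SRSF2 thus took its strand from its 1 site. Genes without an entry that had no such position, or a tie, were left without a strand. They could be assigned no site and still count among the 19952 protein-coding genes. In genes with a promoter entry, 99.9% of the positions lying in no other protein-coding gene were on the annotated strand. SRSF2 was not part of this check, and its strand could not differ from that of its only site. Positions in exactly 1 protein-coding gene on their strand were assigned (37045, or 98.5%), with 104 readthrough genes left out. The older symbol PRPF4B was matched to PRP4K.

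All 10 members are named. From each of the lists of related genes (other SR family, Tra2, kinases, transport, core or associated splicing factors, SR-related) up to 3 genes are named. These are the genes with the most sites, with ties in alphabetical order. A list of blood cell markers is not reported here. The members and lists were chosen with earlier results of these data known, and no test was made, since neither genes nor sites are replicates. The steps were checked on simulated positions. No genome was used, so no site sequence is shown. Of the RefSeq promoter windows, 0 held an SR site. Python 3.11.15 with pandas 2.3.3 was used.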

Additional observations from a re-analysis of the deposited data

How the results depend on the processing

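The SR sites numbered 21 as reported, 18 when positions within 50 nt were joined and 16 with the longer part alone. They fell to 13 with scores at or above the list median (8 of 10 genes still with a site, a median of 1 per gene) and to 8 in the shorter part (7 genes, a median of 1). SRSF1 and SRSF10 had 0 sites left at the higher scores, and SRSF2 had 0 in the longer part. Allowing 100 nt beyond the gene ends left 21. The share of sites in the last 1 kb lay between 25% and 38.5% over these settings, and the share in the first 1 kb was 0 in each. Only the allowance of 100 nt could have raised that 0, since the other settings take their positions from the 21. These counts and shares were computed for the SR genes alone. The shares over all genes given above hold only for the list as reported. The median score percentile was 69.1 as reported, 72.0 with the lower of 2 scores, 78.4 with the longer part and 82.4 with the shorter. Each was ranked among the scores of its own setting, so these percentiles are not on 1 scale. No interval is given for it, since the sites are not replicates. Genes with a score of 100 or more numbered 3 as reported, 2 with the lower of 2 scores or in the longer part, where SRSF3 scored 50.7, and 1 in the shorter part, a check chosen after seeing the data. The share of SR positions on 2 rows was 23.1% at the higher scores, and the share over all positions at that cut was not computed. Such positions keep the higher of their 2 scores, so they can pass the cut more easily. Motif, coding and untranslated region settings were not run, as no genome or exon annotation was used. No paired analysis was possible because the list has no values per library. Depth behind a site is unknown, so a gene without further sites may hold weaker ones.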

Other observations

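SRSF8, an intronless SR gene that arose as a retrocopy of SRSF2, had 10 sites in a span of 4.35 kb on chromosome 11, plus strand, more than any of the 10 SR genes described above. That is 2.30 sites per kb, at percentile 98.2 of genes with a site, whereas SRSF2 had 1 site and 0.303 per kb. The values per kb use the gene span, introns included, so an intronless gene is set beside genes with introns. The 4 sites nearest the 5′ end, at 95067816, 95068110, 95068367 and 95068781, scored 14.7, 14.3, 14.7 and 37.1, where 95068110 is listed on 2 rows and its lower score is 2.73. The other 6, from 95069896 to 95070972, scored between 0.136 and 1.97, at percentile 13.7 of the list or lower. The upstream scores lay above the downstream ones, by a small margin if the lower score of 95068110 is taken. SRSF12 had 1 site, at 89098646 on chromosome 6, minus strand, with a score of 5.72. Because SRSF8 and SRSF2 share sequence, their counts are uncertain, and the sources used here do not say how shared reads were placed.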
